A study of Mus musculus with 116 samples.

Results

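Single cells of 2 mouse cell lines were compared by full-length RNA sequencing: C10, which the labels give as an alveolar type II epithelial line, and SVEC, which they give as an endothelial line. The libraries were those titled with a number and the line's name, and a library was kept when at least 100000 of its reads were assigned to genes. This left 45 C10 and 42 SVEC libraries, 87 of the 96 single-cell libraries of the 2 lines and of 116 libraries in the whole series. The 9 libraries left out (3 C10 and 6 SVEC) held between 56 and 95959 counts. All cells of both lines were untreated and grown under standard culture, and each library was made from 1 cell with the SMART-Seq v4 Plus chemistry after nanoSPLITS, a method that divides the lysate droplet of a cell so that RNA and protein can be measured in the same cell. A separate series of C10 libraries made from 1, 3 or 10 cells (8, 6 and 6 libraries) took no part in the choice and is quoted as an outside reference for C10. Strain, clone and passage are not given in the sources used here.

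The labels name no separate culture for any cell, so each line counts as 1 sample and the comparison is a description with no test. Levels are counts per 1000000 reads assigned to genes (CPM), averaged over the libraries of a line with equal weight. A difference is the log2 of mean C10 CPM + 10 over mean SVEC CPM + 10, so positive values are higher in C10, and this scale understates the difference of weakly expressed genes. Of 40202 gene symbols, 7135 were compared: those with an average of at least 10 CPM over the 2 line means and counts in at least 25% of the libraries. Here "higher" is said of a gene only where the log2 difference was at least 1 in size (2-fold on this scale). Among the 7135 genes 606 were higher in C10 (8.49%) and 883 in SVEC (12.4%). Those 2 percentages are the background against which each group of genes is to be read. The median difference of all genes was -0.07. With TMM scaling, an alternative that sets library factors from the bulk of genes, it was 0.23, and the share of past-2-fold genes that were higher in C10 went from 40.7% to 68%. With the median over libraries in place of the mean that share was 81.2%.

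C10 libraries were deeper, with 147254 to 5911755 counts (median 1928064) against 130944 to 2831907 (median 517518) in SVEC, and a median of 6107 genes was detected against 4498. After every library was thinned to 100000 counts the medians were 4825 and 3827 genes. Mitochondrial genes took a median of 7.14% of counts in C10 and 4.03% in SVEC, with 1 C10 library at 30.95%, and the median share of reads that did not align was 28.25% against 35.52%. The part of depth, mitochondrial share and unaligned reads in the differences below was not tested, beyond the alternatives given in the closing section. The reads carry no molecular identifiers, so limits drawn from counts cover counting error only. A gene with 0 counts in a whole line could have been present at up to 3 counts per library, a mean of 2.59 CPM in C10 and 7.47 CPM in SVEC, and folds against such a line are lower bounds set against this floor.

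A 0 has a further limit in these counts. B2m, Tuba1b, Timp1 and Tagln, genes expressed in most cultured cells, had 0 counts in every library of both lines, and each of them overlaps another annotated gene (Patl2, Gm41396, Syn1 and Pcsk7). A 0 in a gene that overlaps another is therefore not read as absence. Among the genes named below, Isg15, Usp18, Ccnd1, Ccnd2, Rps12, Rack1, Eif5a, Eif4a2, Psph, Pfn1, Zyx, Timp2, Igfbp7, Lgals1, Ldha, Mrpl49, Malat1, Gadd45a, Rpl22, Ddit3, Pdgfb, Aldh1a1, Tcf4, Twist2, Cdh5, Kdr and Plvap overlap another listed gene, as do the mitochondrial genes ATP8, ATP6, COX3, ND4L and ND4. Their levels are uncertain to that extent. Ifit3, Oas1a, Eno1, Hmgn2, Tmsb4x, the class I genes, the histone genes and many ribosomal protein genes have near-identical copies or processed pseudogenes, and the files do not show how reads matching several copies were treated.

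Type II cells of the alveolus are cuboidal epithelial cells that make surfactant and can divide to repair the alveolar lining. Endothelial cells line vessels and are held together by VE-cadherin (Cdh5) and PECAM1. Epithelial cells are held together by E-cadherin (Cdh1) and carry keratin filaments. Most of these defining markers were at or near 0 in both lines. Surfactant genes Sftpa1, Sftpb, Sftpc and Sftpd and the lung regulator Nkx2-1 had 0 counts in all libraries of both lines, as did the endothelial genes Kdr, Tie1, Vwf, Esam and Cldn5 and the leukocyte gene Ptprc. Of 20 alveolar type II markers 10 were at 0 in both lines (9 of them without an overlapping gene), and of 37 endothelial markers 15 were (10 without an overlap). The summed level of the type II list was 0 to 657 CPM (median 43.7) in C10 and 0 to 929 CPM (median 69.8) in SVEC. That of the endothelial list was 0 to 124 CPM (median 11.8) in C10 and 0 to 531 CPM (median 48.9) in SVEC. The type II sum thus did not set C10 above SVEC. Of 5 compared lung and endoderm transcription factors 0 were higher in C10 and 3 in SVEC, with a median difference of -1.17. Their sum was 0 to 891 CPM (median 244) in C10 and 0 to 3566 CPM (median 879) in SVEC. That median changed sign under 2 alternatives given in the closing section. The endothelial sum was low in both lines but had a mean of 30.1 ± 37.0 CPM (SD, n = 45) in C10 and 124 ± 141 CPM (SD, n = 42) in SVEC, and 17 SVEC libraries lay above every C10 library. Among its members, chosen after their values were seen, the sphingosine receptor gene S1pr1 was found in 7 SVEC libraries and Ly6c1 in 10, neither of them in C10.

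Single markers gave the same picture. Cdh1 was detected in 24 of 45 C10 cells against 1 of 42 SVEC cells, but at a mean of 1.03 CPM in C10, and after thinning in only 3 C10 libraries. Epcam was seen in 1 C10 library, Krt18 in 3 and Krt7 in 4, none of them in SVEC. Pecam1 had counts in 12 C10 and 5 SVEC libraries at means of 0.294 and 0.257 CPM, and Cdh5 in 1 library of each line. Plvap, which forms the diaphragms of endothelial pores, was found in 34 C10 and 16 SVEC libraries at means of 1.72 and 2.96 CPM. The epithelial surface gene Cd24a was higher in SVEC (log2 difference -2.35, in 30 libraries against 16 of C10), and Klf4, used as an epithelial and an endothelial regulator, was higher in C10 (1.34, in 38 against 10). F11r, the tight junction protein JAM-A, was present in all 87 libraries at a median of 599 CPM in C10 and 575 CPM in SVEC.

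Genes used as mesenchymal markers were abundant in both lines. The intermediate filament gene Vim was 200 to 5217 CPM (median 2006) in C10 and 0 to 3004 CPM (median 954) in SVEC, a log2 difference of 0.95. The matrix glycoprotein gene Sparc had a mean of 5369 ± 2446 CPM (SD, n = 45) in C10 and 3574 ± 1763 CPM (SD, n = 42) in SVEC. Smooth muscle actin, Acta2, was 0 to 6700 CPM (median 1139) in C10 and 0 to 3753 CPM (median 279) in SVEC, a difference of 1.02. The summed mesenchymal list was 7348 to 23530 CPM (median 11670) in C10 and 1346 to 13810 CPM (median 7777) in SVEC, and the ranges overlapped. Of its 12 compared members 1 was higher in C10 (Acta2) and 2 in SVEC (Tcf4 and Twist2). The label names are kept below as names of the lines, with the reservation that their defining genes were not measured above these levels.

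The 73 gene lists held 2445 genes, of which 1370 were compared. Of the 1370, 6 had ranges that did not overlap between the lines. In COX3, Crip1 and Efemp1 every C10 library was above every SVEC library, and in the class I genes H2-T-ps, H2-K1 and H2-Q1 the reverse held. The same count over all 7135 compared genes was not made, so whether 6 is many or few cannot be said. All other genes named here overlapped in at least 1 library. Sums over programmes are plotted by library for 8 lists. Those of the interferon-stimulated and class I genes did not overlap between the lines, while the others did.

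**Figure D1:**
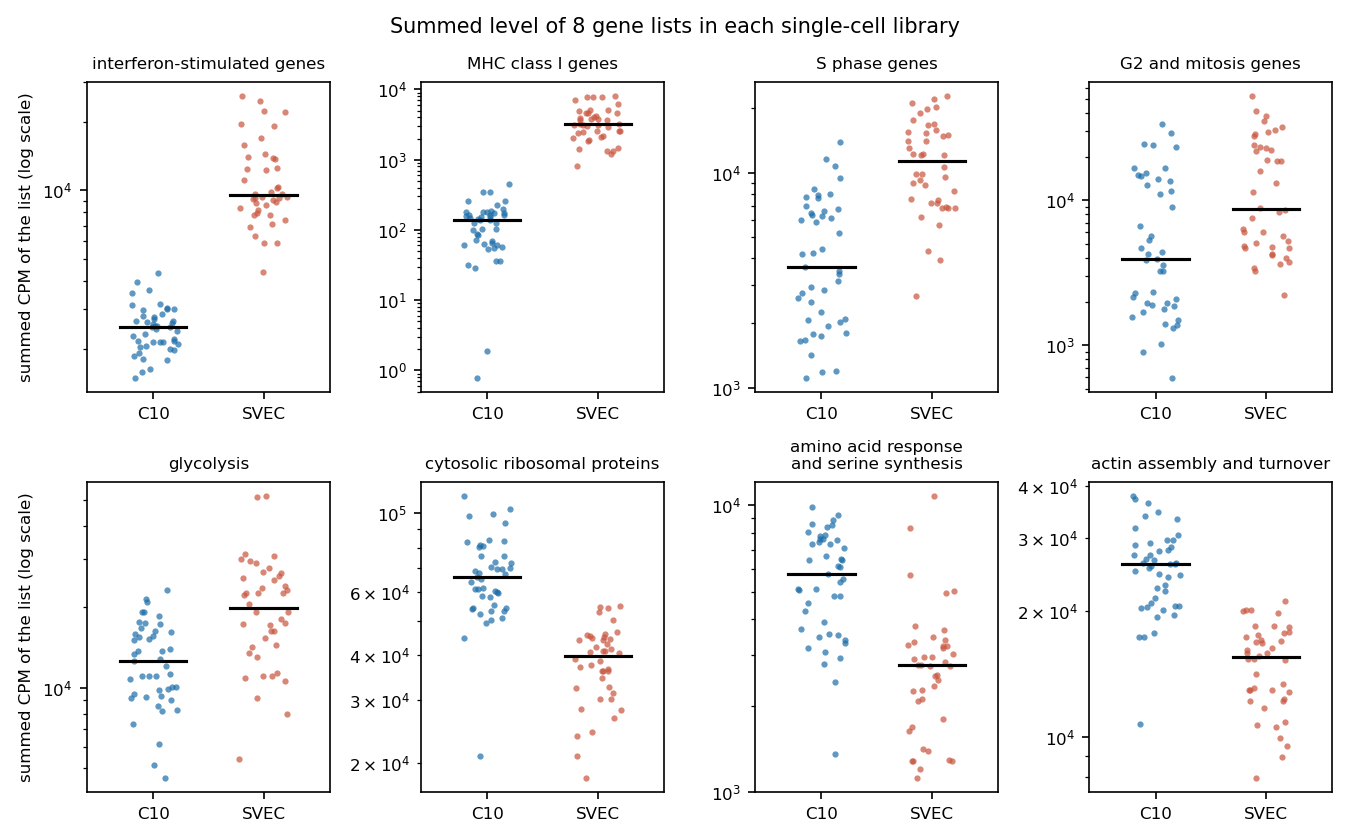
Summed CPM (log axis) of 8 gene lists in each of 45 C10 and 42 SVEC single-cell libraries. Each point is a library and each bar the median of a line. The interferon-stimulated and MHC class I sums do not overlap between the lines, while the other 6 lists overlap.

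**Figure D2:**
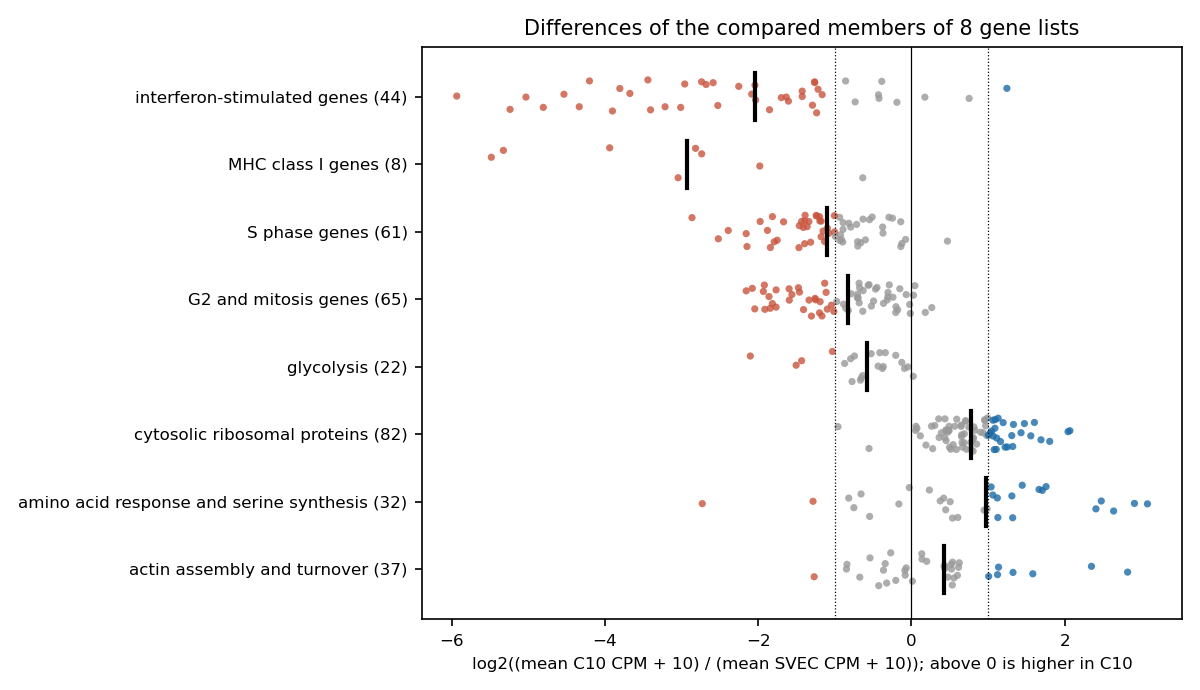
Log2 difference (C10 over SVEC) of each compared member of the same 8 lists, with the number of members in brackets. Black bars are medians and dotted lines mark a 2-fold difference. Interferon-stimulated and class I genes reach below -5, and cytosolic ribosomal proteins lie above 0 except for 2 members.

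The first programme on the SVEC side was the response to interferon. Interferons bind surface receptors that signal through transcription factors, and these switch on antiviral genes by way of the interferon-stimulated response element, whose core is GAAA, 2 free bases and GAAA again. Of 44 compared interferon-stimulated genes 35 were higher in SVEC and 1 in C10, against backgrounds of 12.4% and 8.49%, and their median difference was -2.04. Summed over the 67 listed genes, the level was 1486 to 4330 CPM (median 2506) in C10 and 4367 to 26190 CPM (median 9523) in SVEC. The lowest SVEC library was thus above the highest C10 library, though by a narrow margin. The 10-cell C10 libraries, outside the comparison, had 1689 to 2732 CPM (median 2303), within the range of the C10 single cells.

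Roles within the response differed. The roles, and the members named beyond the first few of a list, were chosen after the values were seen. Of 4 receptor subunits 1 was higher in each line, and the C10 member was Ifngr2, a subunit of the interferon gamma receptor (0 to 276 CPM, median 38.7, in C10 and 0 to 119 CPM, median 0, in SVEC, difference 1.25). Ifngr2 was no longer past 2-fold in libraries of 300000 to 1500000 counts (0.65). Among 7 signal transducers and transcription factors 4 were higher in SVEC and none in C10. Irf7, which amplifies the response, was found in 2 C10 and 32 SVEC libraries (difference -3.90).

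All 4 compared genes of the ISG15 system, which tags proteins with a ubiquitin-like modifier, were higher in SVEC. Isg15 itself was 0 to 48.5 CPM (median 0) in C10 and 0 to 1939 CPM (median 232) in SVEC, and 36 of 42 SVEC libraries were above the highest C10 library. Usp18, the protease that removes ISG15, had no count in any C10 library and was found in 35 SVEC libraries. The 5 interferon-inducible GTPases, which act on the vacuoles of intracellular pathogens, were also all higher in SVEC, among them Igtp (in 3 and 30 libraries, difference -3.41).

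Of 7 nucleic acid sensors and enzymes 5 were higher in SVEC (median -1.43), and of 5 membrane and IFIT restriction factors 4 were (median -1.70). The members of these 2 roles ranged widely. Samhd1, which depletes nucleotides, differed by -0.39, the exonuclease gene Isg20 by -0.86 and Ifitm2 by -0.74, none of them past 2-fold, while others were at the far end of the list. Ifit3, which belongs to a family that binds foreign RNA ends, had 0 counts in all 45 C10 libraries. In SVEC it was 0 to 7268 CPM (median 163), with counts in 31 of 42 libraries, and so at least 232-fold higher by the means. Oasl2 and Oas1a, of the family that senses double-stranded RNA, were likewise at 0 throughout C10. Oasl2 was 0 to 2499 CPM (median 191) in 33 SVEC libraries, at least 142-fold higher, and Oas1a 0 to 956 CPM (median 193) in 35 SVEC libraries, at least 85.7-fold higher. Ifit3 and Oasl2 were each at 0 in several SVEC libraries and high in others, and whether these zeros are lost transcripts or differences between cells was not tested. Ifitm3, a membrane protein that blocks viral entry, differed in degree only. It was 121 to 1566 CPM (median 520) in C10 and 233 to 6871 CPM (median 1411) in SVEC, present in all 87 libraries, with a difference of -1.70.

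Promoter sequence was examined as a description of this list. RefSeq promoter windows (GRCm38.p6) ran from 250 bases before to 50 after the annotated start. Of 55 members with a window 24 held this core on either strand (43.6%), against 1079 of all 27025 genes with a window (3.99%). Members were counted whether or not they were compared or past 2-fold. The list was made of genes known to respond to interferon, so this share is no support for a difference between the lines. The Ifit3 window on chromosome 19 is shown first because Ifit3 had the largest difference of the list. The next 3 windows are those of Trib3, Chac1 and Mcm6, which return below. Each is given 5′ to 3′ on the gene's strand, from 250 bases before to 30 after the start, with matches of the motif searched in its list in capitals. The 280 bases shown are chr19:34583279-34583558 (plus strand) for Ifit3, chr2:152344031-152344310 (minus strand) for Trib3, chr2:119350992-119351271 (plus strand) for Chac1 and chr1:128359676-128359955 (minus strand) for Mcm6.
Ifit3: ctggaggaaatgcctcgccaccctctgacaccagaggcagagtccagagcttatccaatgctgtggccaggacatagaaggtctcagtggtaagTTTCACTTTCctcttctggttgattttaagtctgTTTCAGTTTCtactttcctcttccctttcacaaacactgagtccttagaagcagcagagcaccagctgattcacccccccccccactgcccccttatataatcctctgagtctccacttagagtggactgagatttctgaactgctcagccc
Trib3: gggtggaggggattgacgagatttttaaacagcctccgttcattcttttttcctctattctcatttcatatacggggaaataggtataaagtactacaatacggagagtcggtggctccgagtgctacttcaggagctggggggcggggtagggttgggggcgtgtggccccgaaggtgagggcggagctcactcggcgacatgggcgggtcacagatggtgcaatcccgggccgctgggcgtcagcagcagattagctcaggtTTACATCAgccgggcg
Chac1: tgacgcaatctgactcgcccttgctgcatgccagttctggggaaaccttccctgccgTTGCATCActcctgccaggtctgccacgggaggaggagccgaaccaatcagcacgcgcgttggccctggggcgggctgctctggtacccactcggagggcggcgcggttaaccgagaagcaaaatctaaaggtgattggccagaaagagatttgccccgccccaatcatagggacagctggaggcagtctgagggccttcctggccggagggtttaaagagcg
Mcm6: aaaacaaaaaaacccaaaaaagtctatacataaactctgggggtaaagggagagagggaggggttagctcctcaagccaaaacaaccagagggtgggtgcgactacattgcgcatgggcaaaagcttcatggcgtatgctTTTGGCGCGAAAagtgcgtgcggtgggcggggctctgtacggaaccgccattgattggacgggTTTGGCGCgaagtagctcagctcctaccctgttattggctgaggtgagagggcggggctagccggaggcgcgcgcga
The 2 matches of Ifit3 are on the opposite strand and begin 156 and 122 bases before the start. Oasl2 had no match in its window, and a match or its lack is a description of these letters only.

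MHC class I molecules present peptides cut by the proteasome to T cells, and interferon raises both the molecules and an immune form of the proteasome. Of 8 compared class I genes 7 were higher in SVEC, with a median difference of -2.93. Their sum was 0.777 to 458 CPM (median 136) in C10 and 818 to 8166 CPM (median 3177) in SVEC, with no overlap. The 10-cell C10 libraries had 72.1 to 278 CPM. B2m, the light chain of these molecules, was among the genes at 0 in both lines and cannot be judged. Psmb8 and Psmb9, catalytic subunits of the immunoproteasome, followed the same direction. Psmb8 had no count in C10 and was 0 to 929 CPM (median 215) in 37 of 42 SVEC libraries, at least 104-fold higher. Psmb9 was 0 to 90.1 CPM (median 0, 7 libraries) in C10 and 0 to 887 CPM (median 125, 34 libraries) in SVEC. The constitutive proteasome did not share this difference: none of its 34 compared genes was past 2-fold, and the sums were 5844 to 19380 CPM (median 15350) in C10 and 6146 to 21090 CPM (median 14790) in SVEC.

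**Figure D3:**
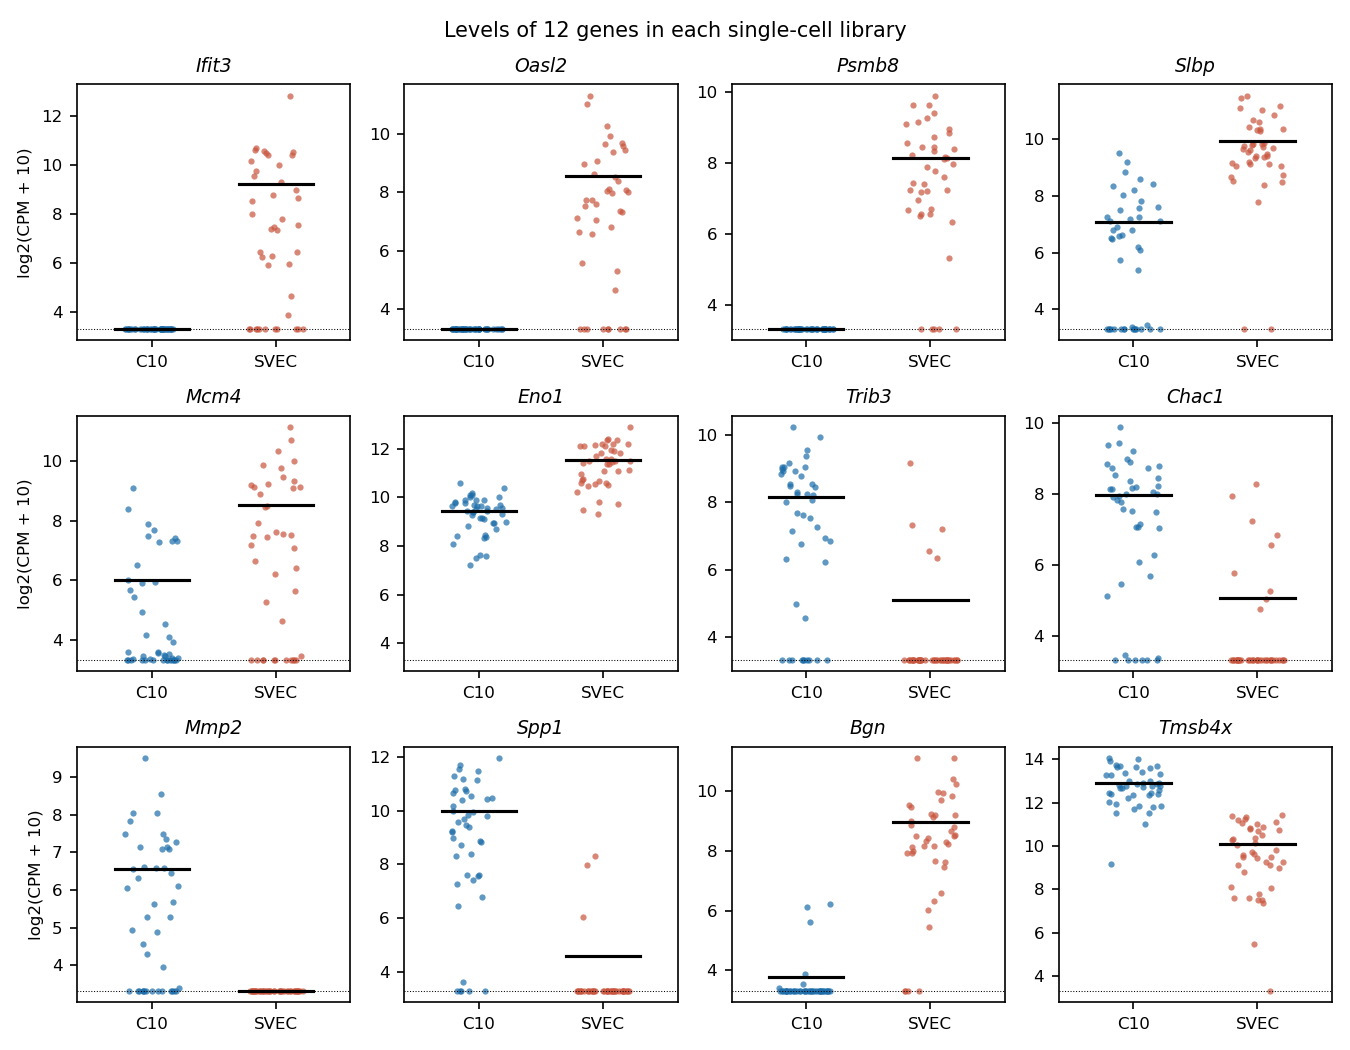
Level of 12 genes in each single-cell library as log2(CPM + 10). Bars are log2 of the line's mean CPM + 10, and the dotted line marks 0 counts. Ifit3, Oasl2 and Psmb8 lie on the dotted line in all 45 C10 libraries and Mmp2 in all 42 SVEC libraries.

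Outside interferon genes, inflammatory signals did not separate the lines as a group. Of 14 compared chemokine, cytokine and receptor genes 1 was higher in C10 and 2 in SVEC. Cxcl1, a neutrophil chemokine, was found in 7 C10 and 19 SVEC libraries, with maxima of 580 and 4162 CPM and a difference of -3.76. Its median was 0 in both lines, and the high values were those of a minority of cells. Ccl2, a monocyte chemokine outside the naming rule, had medians of 214 and 265 CPM.

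Genes of the cell cycle were the second programme with higher levels in SVEC. Cells copy their DNA in S phase with the MCM helicase, polymerases and a sliding clamp, and separate the copies in mitosis. Of 61 compared S phase genes 34 were higher in SVEC (background 12.4%) and 0 in C10, with a median difference of -1.10. With TMM scaling the count was 21. The summed level was 1108 to 13950 CPM (median 3627) in C10 and 2685 to 22870 CPM (median 11370) in SVEC. These ranges overlapped widely: 16 SVEC libraries were above every C10 library and 16 C10 libraries below every SVEC library. A C10 library had the higher sum in 11.3% of pairs. The 10-cell C10 libraries had a median of 4742 CPM.

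Replication factors are grouped here by machine. Of 6 MCM helicase subunits 5 were higher in SVEC (median -1.41), and of 6 clamp and clamp loader genes 5 were (median -1.18). Of 11 primase and polymerase genes 5 were higher, and of the 5 GINS and Cdc45 genes that complete the helicase only 1. Mcm4 was 0 to 544 CPM (median 1.79) in C10 and 0 to 2262 CPM (median 167) in SVEC, with counts in 31 libraries of each line and a difference of -2.52. Mcm6 was 0 to 373 CPM (median 0.880) in C10 and 0 to 1440 CPM (median 216) in SVEC, a difference of -2.15, which became -0.96 against the 1-cell C10 input libraries without their most mitochondrial library. In the Mcm6 window above, the E2F-type motif TTTNNCGC occurs 3 times on both strands, 2 of the matches overlapping. It was found in 23 of 55 S phase genes with a window (41.8%) against 1602 of all genes with a window (5.93%). As these genes were listed for their part in S phase, that share again does not bear on the 2 lines.

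Histone supply belongs to the same phase. Slbp, which binds histone mRNA and is made for S phase, was 0 to 717 CPM (median 81.5) in C10 and 0 to 2878 CPM (median 776) in SVEC. Counts were present in 30 and 40 libraries, and 23 SVEC libraries were above the highest C10 library (difference -2.86). Its window held no TTTNNCGC. Of 12 compared histone genes 4 were higher in SVEC and 1, H2aj, in C10 (12.8 to 436 CPM, median 87.1, in C10 and 0 to 173 CPM, median 15.4, in SVEC). Of the 86 listed histone genes 74 were not compared.

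Of 65 compared G2 and mitosis genes 29 were higher in SVEC and 0 in C10 (median -0.82), and 15 were with the median over libraries. Sums were 594 to 33700 CPM (median 3946) in C10 and 2214 to 52810 CPM (median 8736) in SVEC. Pbk, a mitotic kinase, was 0 to 454 CPM (median 0) in C10 and 0 to 1480 CPM (median 78.1) in SVEC, a difference of -2.16. Cdk1, the kinase that starts mitosis, had medians of 87.1 and 587 CPM and a difference of -1.20, which was -0.85 with TMM scaling. The chromatin proteins Hmgb2 (difference -1.77) and Hmgn2 (-1.97) and the microtubule regulator Stmn1 (-2.12) were higher in SVEC as well.

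The 2 lines also differed in how the phases were arranged over cells. Over the 45 C10 libraries the S phase and mitosis sums were high in the same cells, with, on the log2 scale, Pearson's r of 0.733 and Spearman's rho of 0.735. Over the 42 SVEC libraries r was -0.175 and rho -0.206. Both sums of a library share its depth and scaling. With total counts, S phase sums had r of 0.238 and rho of 0.360 in C10, and 0.081 and 0.077 in SVEC. For mitosis sums r was 0.170 and rho 0.242 in C10, and -0.064 and -0.054 in SVEC. These are descriptions over cells of 1 sample per line and their difference was not tested.

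**Figure D4:**
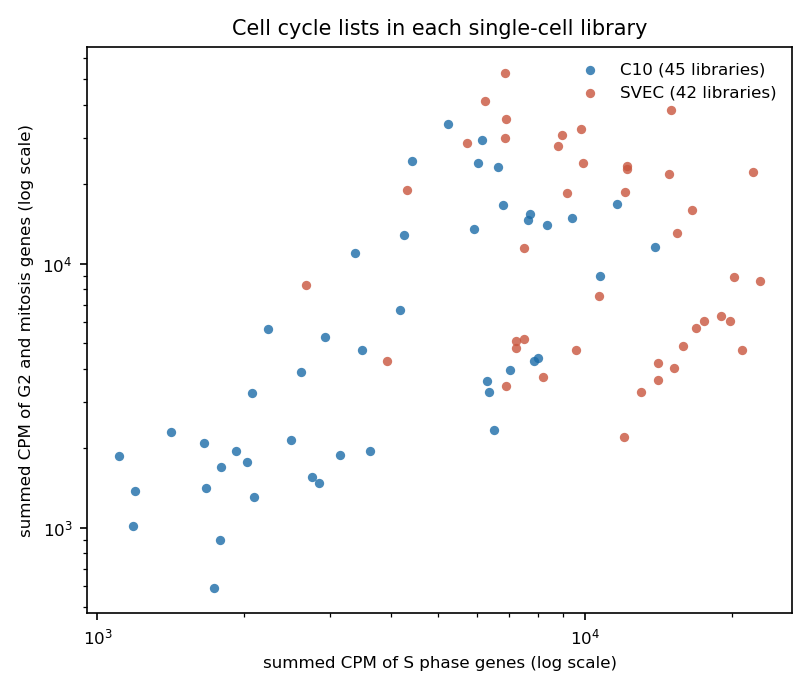
Summed CPM of S phase genes (horizontal) against G2 and mitosis genes (vertical) in each single-cell library, both on log axes. C10 libraries extend to the low corner of both sums, down to 1108 and 594 CPM, while SVEC libraries begin at 2685 and 2214 CPM.

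Of 17 compared G1, Rb and E2F regulators 3 were higher in C10 and 3 in SVEC. Of these 17, 14 had a negative difference, and the median was -0.40. The D-type cyclins Ccnd1 and Ccnd2, which carry growth signals to the cell cycle in G1, went the other way from most of them. Ccnd1 was 0 to 611 CPM (median 140) in 35 C10 libraries and 0 to 165 CPM (median 0) in 6 SVEC libraries, a difference of 2.99. Ccnd2 was 0 to 1031 CPM (median 269) in C10 and 0 to 468 CPM (median 99.3) in SVEC, a difference of 1.32. Of 23 compared p53 pathway genes 6 were higher in C10 and 5 in SVEC. Ccng1, a p53 target that encodes cyclin G1, was 0 to 859 CPM (median 205) in C10 and 0 to 605 CPM (median 0) in SVEC (2.17), and the stress gene Gadd45a differed by 2.19. The immediate early gene Fos had medians of 101 CPM in C10 and 500 CPM in SVEC (-2.23). Of 22 compared immediate early and AP-1 genes 2 were higher in C10 (9.09%, background 8.49%) and 5 in SVEC (22.7%, background 12.4%). The median of that list was -0.01, with 11 positive and 11 negative differences.

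Glycolysis, which turns glucose into pyruvate and lactate, had a broad difference of small size. Of 22 compared genes 21 had a negative difference, with a median of -0.58, while only 4 were higher in SVEC by 2-fold (18.2%, background 12.4%) and 0 in C10. The median of all genes was -0.07 here and 0.23 with TMM scaling, and the signs of small differences can depend on this choice. Sums were 4597 to 22950 CPM (median 12570) in C10 and 5430 to 51610 CPM (median 19750) in SVEC. Eno1, the enolase of most tissues, separated the lines best. It was 139 to 1530 CPM (median 689) in C10 and 629 to 7550 CPM (median 2825) in SVEC, and 33 SVEC libraries were above every C10 library (difference -2.10). Pfkl, a phosphofructokinase, was found in 35 C10 and 38 SVEC libraries (difference -1.51). Ldha, lactate dehydrogenase A, had medians of 1340 and 2483 CPM and a difference of -1.03, which was -0.63 with TMM scaling. In the tricarboxylic acid cycle 3 of 31 genes were higher in SVEC and 1 in C10. The mitochondrial isocitrate dehydrogenase Idh2 was 0 to 252 CPM (median 0) in C10 and 0 to 1240 CPM (median 208) in SVEC, a difference of -2.98. Nuclear-encoded oxidative phosphorylation genes were level between the lines: 2 of 79 were higher in C10, 0 in SVEC, and the median was 0.01.

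Cytosolic ribosomal proteins, a part of the protein synthesis machinery, made the broadest programme on the C10 side. Of 82 compared cytosolic ribosomal protein genes 26 were higher in C10 (background 8.49%) and 0 in SVEC, 80 had a positive difference, and the median was 0.78. Their sum was 20880 to 111600 CPM (median 66340) in C10 and 18130 to 54880 CPM (median 39840) in SVEC. Of the 45 C10 libraries 34 were above every SVEC library, and 1 SVEC library was below every C10 library. Both subunits took part, with 14 of 48 large-subunit and 12 of 33 small-subunit genes higher in C10. The count rose to 51 with TMM scaling and was 8 when the 1-cell C10 input libraries replaced the single cells. The 10-cell C10 libraries had a median sum of 59270 CPM. The 1-cell libraries of the input series had 16460 to 60380 CPM (median 47100), nearer to the SVEC median than to that of the C10 single cells.

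Among single ribosomal genes, Rps15a was 94.99 to 1408 CPM (median 552) in C10 and 0 to 364 CPM (median 130) in SVEC, with 36 C10 libraries above every SVEC library (difference 2.04). Rps12 had medians of 615 and 141 CPM (1.80). Rack1, a scaffold on the small subunit and host of 2 snoRNAs, was 516 to 2651 CPM (median 1657) in C10 and 0 to 1175 CPM (median 461) in SVEC (1.69). Rpl22l1 and Rpl22 are paralogues of the large subunit and lay at opposite ends of the list. Rpl22l1 was 3.52 to 2412 CPM (median 712) in C10 and 0 to 1144 CPM (median 115) in SVEC, a difference of 2.07. Rpl22 was 0 to 230 CPM (median 43.8) in C10 and 0 to 415 CPM (median 106) in SVEC, a difference of -0.96, short of 2-fold. Against the 1-cell C10 input libraries Rpl22l1 and Rack1 differed by 0.63 and 0.60.

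Translation factors gave 6 of 51 higher in C10 (11.8%, background 8.49%) and 1 in SVEC. Eif5a, which helps the ribosome through difficult peptide bonds, was 214 to 1406 CPM (median 724) in C10 and 0 to 741 CPM (median 249) in SVEC (1.36). The exception was the helicase gene Eif4a2 (-1.86), with counts in 31 C10 and 28 SVEC libraries. The mitochondrial ribosome did not share the difference of the cytosolic one: 5 of 76 genes were higher in C10 and 3 in SVEC, and the sums had medians of 10840 and 10710 CPM. Mrps26 (1.33) and Mrpl49 (-1.63) lay farthest apart. Of 36 compared ribosome biogenesis genes 1 was higher in C10 (2.78%) and 0 in SVEC.

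A second C10 programme was the amino acid response. When amino acids run short or the endoplasmic reticulum is stressed, the factor ATF4 switches on transporters, serine and asparagine synthesis and its own feedback inhibitors, through elements such as TGATGNAA. Of 32 compared genes 15 were higher in C10 (background 8.49%) and 2 in SVEC, with a median of 0.97. The sum was 1352 to 9857 CPM (median 5756) in C10 and 1117 to 10780 CPM (median 2764) in SVEC. A C10 library had the higher sum in 86.7% of pairs, and 1 SVEC library was above every C10 library. The count was 7 among genes of at least 50 CPM and 8 against the 1-cell C10 input libraries.

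Of 6 regulators 4 were higher in C10. Trib3, a pseudokinase induced by ATF4, was 0 to 1197 CPM (median 249) in 35 C10 libraries and 0 to 564 CPM (median 0) in 5 SVEC libraries, a difference of 3.08, or 3.68 without the highest library of each line. Chac1, which degrades glutathione and is induced by the same route, was 0 to 930 CPM (median 231) in 39 C10 libraries and 0 to 297 CPM (median 0) in 9 SVEC libraries (2.91). Trib3 and Chac1 were thus present in most C10 cells and few SVEC cells. Atf4 itself differed by 0.50 and Ddit3, a stress factor downstream of it, by 0.45, neither past 2-fold. TGATGNAA was found in 8 of 33 genes of the list with a window (24.2%) against 1219 of all genes with a window (4.51%). The list was made of genes of this response, so the share does not bear on the 2 lines. In the sequences printed above, Trib3 and Chac1 hold 1 match each, on the opposite strand, beginning 14 bases after the start in Trib3 and 193 before it in Chac1.

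Of 9 enzymes 4 were higher in C10 and 1 in SVEC. Psph, the last enzyme of serine synthesis, was 0 to 1185 CPM (median 510) in C10 and 0 to 565 CPM (median 0) in SVEC, with counts in 44 and 18 libraries (2.48). Phgdh, the first enzyme, was 20.7 to 1037 CPM (median 410) in C10 and 0 to 989 CPM (median 140) in SVEC (1.04, and 0.89 with counts summed over libraries). Asns, asparagine synthetase, had medians of 665 and 90.2 CPM (1.71). The exception was the cytosolic enzyme Shmt1, which moves a carbon between serine and glycine, found in 9 C10 and 23 SVEC libraries (-2.73). Transporters divided in a like way, 4 of 9 higher in C10 and 1 in SVEC. The neutral amino acid carrier Slc1a5 was 0 to 308 CPM (median 38.4) in C10 and 0 to 40.7 CPM (median 0) in SVEC (2.64). The cystine carrier Slc7a11 was 0 to 192 CPM (median 0.478) in C10 and 0 to 233 CPM (median 47.9) in SVEC (-1.29).

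Actin assembly and turnover was another C10 programme. The list of the contractile actin cytoskeleton was near the background, with 2 of 20 compared genes higher in C10 (10%) and 1 in SVEC (5%), and a median of 0.26. Of 37 compared genes of actin assembly and turnover 7 were higher in C10 (background 8.49%) and 1 in SVEC, with a median of 0.43. The sums were 10730 to 37880 CPM (median 26010) in C10 and 7937 to 21200 CPM (median 15490) in SVEC. Of 45 C10 libraries 33 were above every SVEC library, and the 10-cell C10 libraries had a median of 26320 CPM. Thymosin beta 4, Tmsb4x, which holds actin monomers in reserve, made a large part of this sum. It was 571 to 16940 CPM (median 6934) in C10 and 0 to 2740 CPM (median 803) in SVEC, and 43 C10 libraries were above every SVEC library (2.82). Its relative Tmsb10 did not follow, with medians of 636 and 530 CPM and a difference of -0.07.

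Other members had other tasks. Profilin, Pfn1, which hands monomers to growing filaments, was 390 to 3646 CPM (median 1292) in C10 and 154 to 1751 CPM (median 533) in SVEC (1.14). Fascin, Fscn1, which bundles filaments, had medians of 88.3 and 6.44 CPM (1.58), and its difference was -0.08 against the 1-cell C10 input libraries. Zyx belongs to a separate list, that of focal adhesions. It was 0 to 824 CPM (median 274) in C10 and 0 to 372 CPM (median 7.05) in SVEC (2.66). Its list did not follow it: of 33 compared genes 4 were higher in C10 (12.1%, background 8.49%) and 3 in SVEC (9.09%, background 12.4%). The median of that list was -0.10. In the list of actin assembly and turnover, the monomer-binding protein gene Twf2 was the 1 member higher in SVEC (-1.27), with a median of 0 in both lines. Of 10 compared tubulins 0 were past 2-fold.

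Matricellular proteins and proteoglycans separated the lines gene by gene rather than as a group. Of 16 compared genes 4 were higher in C10 (25%, background 8.49%) and 5 in SVEC (31.2%, background 12.4%). Osteopontin, Spp1, was 0 to 3919 CPM (median 697) in 40 C10 libraries and 0 to 305 CPM (median 0) in 3 SVEC libraries, a difference of 5.37. The small proteoglycan biglycan, Bgn, was the mirror of it, at 0 to 65.2 CPM (median 0) in 6 C10 libraries and 0 to 2169 CPM (median 342) in 38 SVEC libraries (-5.18). For Spp1 32 C10 libraries and for Bgn 36 SVEC libraries were above every library of the other line. Neither gene had counts in all libraries of its own line.

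Matrix proteases and their inhibitors went in 1 direction past 2-fold, with 6 of 18 higher in C10 (33.3%, background 8.49%) and 0 in SVEC. Mmp2, gelatinase A, was 0 to 713 CPM (median 39.2) in 31 C10 libraries and had no count in any SVEC library, so it was at least 11.2-fold higher. Timp2, an inhibitor that also takes part in activating MMP2, was 41.4 to 1734 CPM (median 577) in C10 and 0 to 698 CPM (median 111) in SVEC (1.91, and 0.41 against the 1-cell C10 input libraries). The median of this list changed from 0.71 to -0.04 against those 1-cell libraries. Collagen processing enzymes showed the reverse direction, 0 of 19 higher in C10 and 6 in SVEC (31.6%, background 12.4%), led by the lysyl hydroxylase Plod1 (-1.91).

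Growth factor genes, like the matricellular list, had members on both sides. In the insulin-like growth factor axis 3 of 8 genes were higher in each line. The binding protein gene Igfbp7 was 0 to 252 CPM (median 58.9) in C10 and 0 to 48.6 CPM (median 0) in SVEC (2.69). Igfbp6 was 0 to 124 CPM (median 0) in C10 and 0 to 804 CPM (median 145) in SVEC (-2.90). Vegfa, the main attractant of endothelial cells, was 0 to 382 CPM (median 72.7) in C10 and 0 to 197 CPM (median 0) in SVEC (2.15). Lists of signals also had members higher in each line, against backgrounds of 8.49% in C10 and 12.4% in SVEC. Of 17 growth factor receptors and ligands 3 were higher in C10 (17.6%) and 2 in SVEC (11.8%). For 20 genes of the VEGF, angiopoietin, Notch and ephrin families the counts were 4 (20%) and 3 (15%). For 9 Wnt pathway genes they were 1 (11.1%) and 2 (22.2%). Some of these shares were above the background, but on few genes. Fgf10, a growth factor of lung branching made by mesenchyme, was found in 32 C10 and 2 SVEC libraries (2.29), Wnt4 in 41 and 11 (2.01), and Pdgfb in 24 and 2 (2.63). On the SVEC side were the ligands Kitl (-1.80) and Efna1 (-1.69) and the Wnt pathway receptor genes Lgr4 (-1.37) and Lrp6 (-1.15). With the median over libraries none of these 4 was past 2-fold, as their medians were 0 in both lines, and Pdgfb differed by 0.30. Id2, an inhibitor of helix-loop-helix factors, was 0 to 521 CPM (median 71.3) in C10 and 0 to 3443 CPM (median 543) in SVEC (-2.76).

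Relatives also divided among detoxification genes. Among 9 compared glutathione S-transferases Gsta4, which acts on lipid peroxidation products, was 0 to 1529 CPM (median 417) in C10 and 0 to 479 CPM (median 0) in SVEC (2.75). Gstm1 was 0 to 437 CPM (median 9.81) in C10 and 0 to 2031 CPM (median 404) in SVEC (-2.96). The retinal dehydrogenase Aldh1a1 was found in 40 C10 and 9 SVEC libraries (2.71), and the aldo-keto reductase Akr1e1 in 25 C10 libraries and no SVEC library, at least 8.16-fold higher. Galectins divided too, with Lgals1 at 2706 to 12000 CPM (median 4925) in C10 and 1121 to 4423 CPM (median 2522) in SVEC (1.07) and Lgals9 at medians of 272 and 682 CPM (-1.29, and -0.90 with TMM scaling).

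Metallothioneins and zinc transporters gave 3 of 12 higher in C10 and 0 in SVEC. Mt2, which binds zinc and copper, was 144 to 4414 CPM (median 647) in C10 and 0 to 881 CPM (median 62.8) in SVEC (2.72). Its neighbour Mt1 was 276 to 6954 CPM (median 1437) in C10 and 41.5 to 3492 CPM (median 820) in SVEC, a difference of 0.99. The zinc importer Slc39a10 was found in 42 C10 and 15 SVEC libraries (2.35). Lipoprotein lipase, Lpl, which frees fatty acids from lipoproteins, was 1.76 to 4541 CPM (median 910) in C10 and 0 to 643 CPM (median 0) in SVEC (3.07), while the list of fatty acid and phospholipid synthesis as a whole had 3 of 29 higher in C10 and 2 in SVEC.

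The small heat shock gene Hspb1 had no count in any C10 library and 0 to 233 CPM (median 15.3) in 36 SVEC libraries, at least 12.6-fold higher in SVEC. Other chaperone genes did not follow it as a group: 2 of 32 heat shock genes were higher in C10 and 4 in SVEC. The nuclear RNA Malat1 varied widely among cells of a line, from 5.81 to 71160 CPM (median 677) in C10 and from 0 to 74200 CPM (median 1514) in SVEC, a difference of -1.97. Without the highest library of each line this difference was -2.78.

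Mitochondrially encoded genes had 4 of 13 members higher in C10 and 0 in SVEC, with a median of 0.71. Their sum takes the mitochondrial share given at the start, so their levels are not independent of it. The 4 members were ATP6, COX3, ND3 and ND4L, which are neighbours in the order of the mitochondrial genome. COX3, a subunit of cytochrome oxidase, was 4657 to 35020 CPM (median 8313) in C10 and 216 to 4113 CPM (median 1821) in SVEC (2.21), with no overlap. ATP6, a subunit of ATP synthase, had medians of 3990 and 1042 CPM (1.88). ND3, a subunit of complex I, had 363 and 46.8 CPM (2.42). ND4L had 70.9 and 5.69 CPM (1.74). The genes next to these 4 were not past 2-fold: ATP8 had medians of 96.2 and 75.9 CPM (0.26), and ND4 2785 and 3594 CPM (-0.45). Some genes farther away came closer to 2-fold, with ND2 at medians of 1338 and 649 CPM (0.97), ND1 at 5987 and 2884 CPM (0.85) and ND6 at 1074 and 571 CPM (0.71). ATP6 overlaps its neighbours and ND4L overlaps ND4, and the part of shared reads was not tested. The difference was not uniform over the genes of 1 genome, which is transcribed as long precursors. The 10-cell C10 libraries had a COX3 median of 8168 CPM.

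**Figure D5:**
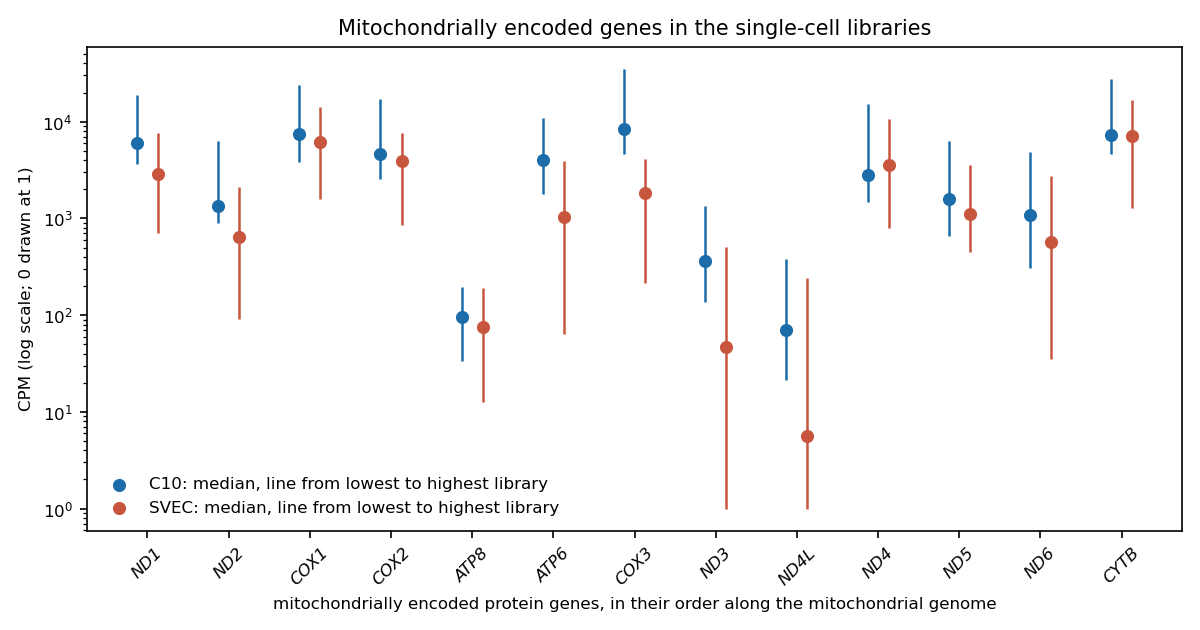
CPM (log axis, 0 drawn at 1) of the 13 mitochondrially encoded protein genes, in their order along the mitochondrial genome. Points are medians and lines run from the lowest to the highest library of 45 C10 and 42 SVEC cells. The gap between the lines is widest at ATP6, COX3, ND3 and ND4L.

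Grouping all symbols by their stem gave 229 families with at least 5 compared members. In 0 of them were 50% or more of the members higher in C10, and in 10 they were higher in SVEC. These 10 were chosen by their values. They included the interferon-inducible Ifi family (8 of 8), with Ifi44 at medians of 3.49 CPM in C10 and 243 CPM in SVEC, symbols that begin with H2- (6 of 8, a grouping by name that is not the same as the class I list above), Rfc clamp loaders (4 of 5), Haus spindle proteins (5 of 7) and Mcm genes (5 of 8). In 58 families members were higher in each direction.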

How the data were processed

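Each library was a table of read counts per gene deposited by the authors, made with FastQC, STAR and HTSeq per the submitters' processing notes. Versions, genome build, annotation and strand setting are not given in the sources used here. HTSeq's counters of reads not assigned to a gene stayed out of the totals, and the counter for reads that align to several places is 0 in every file. Counts were scaled to CPM, averaged with equal weight over the libraries of a line and compared with a pseudocount of 10 CPM (Python 3.11.15, pandas 2.3.3). TMM factors came from edgeR 4.0.16 and served as an alternative scaling only. In simulated counts the calculation called most genes that were given differences well above 2-fold. Differences near 2-fold were not simulated, and the share called among genes given no difference is not reported here. Of 40202 symbols 38730 were found in the RefSeq table (GRCm38.p6), used for overlaps, names and promoter windows.

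The comparison and the 73 gene lists were chosen with earlier results of these data known, and some lists were tidied after the symbols of the files were seen. In each list up to 2 compared members per direction past 2-fold were to be named (159 genes). A further 21 genes past 2-fold were named for their role after their values were seen. Cell type markers were named when detected in 50% or more of a line's cells or when defining and near 0. The list members without a row in the files, 5 in all, were not analysed here, and a few genes are not reported here.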

Additional observations from a re-analysis of the deposited data

Results flagged for a closer look

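Dixon's test for a value far from its group applies to groups of 4 to 10 samples, so only the C10 input series could be examined, over 8 gene lists in 3 groups. Of 24 groups 3 held such a value, and chance gives about 1 in 20. In the 10-cell libraries, the S phase sum of replicate 10 was 2988 CPM, below the nearest at 4567 CPM (gap over range 0.703). In the 1-cell libraries, the glycolysis sum of replicate 1 was 4188 CPM, with the nearest at 11070 CPM (0.546). That library had 64.63% mitochondrial counts and 95.14% of its reads not aligned. In the 3-cell libraries, the glycolysis sum of replicate 1 was 10080 CPM, with the nearest at 13080 CPM (0.712). None of these libraries entered the comparison of C10 with SVEC single cells, but the 1-cell library entered the alternative that used the input series, which was therefore also run without it.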

How the results depend on the processing

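No paired analysis was possible because the results come from no test and the numbers in the titles name single cells. The genes higher in C10 (606) and in SVEC (883) became 1084 and 510 with TMM scaling, 1598 and 370 with the median over libraries, and 286 and 470 at a minimum of 50 CPM. A pseudocount of 1 CPM gave 911 higher in C10. Without a filter 1363 were higher in SVEC, against the C10 1-cell input libraries 2118, and without the input library above 50% mitochondrial counts 1913. Of the 606 and 883 genes, 279 and 670 kept their call against the 1-cell input libraries and 133 and 43 changed sign, and 413 and 293 kept it with the median over libraries, where 0 and 123 changed sign. By list, TMM scaling gave 21 S phase, 19 G2 and mitosis and 51 ribosomal protein genes, and the median over libraries 15 G2 and mitosis genes. The 1-cell input libraries gave 8 ribosomal protein genes (7 without that library) and 8 amino acid response genes, and the 50 CPM minimum 7 of the latter. For interferon-stimulated and class I genes every alternative kept the count within 1.5 times and the median negative.

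The median of the lung and endoderm transcription factors was -1.17 in the main comparison. It became 0.16 with the median over libraries and 0.010 without a filter. Among the genes that changed sign, those with the median over libraries were Col4a6 (0.10), Ddx3y (0.28), Fbxw7 (0.051), H2bc4 (0.23) and Mxi1 (0.030). Against the 1-cell input libraries these were C1s1 (-1.29, and -1.17 without the mitochondrial library), Dcn (-0.42, -0.23), Lamp1 (-0.46, -0.28), Msmo1 (-1.77, -1.62), Hsp90ab1 (-0.023) and Fscn1 (-0.076), and without that library Lgals8 (0.10) and Pvt1 (0.083). The cause was not tested. Of the 159 genes named by rule, 139 stayed past 2-fold with TMM scaling, 108 with the median, 102 of those compared against the 1-cell input libraries (33 fell short and 5 changed sign), 144 of those compared after thinning and 128 of those compared among libraries of 300000 to 1500000 counts (14 C10, 27 SVEC). The alternatives without the 30.95% mitochondrial C10 library, without libraries over 50% unaligned, and without the mitochondrial input library were chosen after seeing the data. At the lower depth of SVEC, 0 counts in a line allow up to 7.47 CPM there.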

Other observations

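Ferritin separated the C10 single cells from the other C10 libraries rather than from SVEC. The heavy chain gene Fth1 was 418 to 3623 CPM (median 1730) in C10 single cells and 469 to 3637 CPM (median 1147) in SVEC. In the 1-cell C10 libraries of the input series it was 2625 to 33370 CPM (median 16490), and its median in the 10-cell libraries was 17590 CPM. The light chain gene Ftl1 had medians of 5461 CPM in C10 single cells, 5494 CPM in SVEC and 11000 CPM in the 1-cell input libraries. Levels in the input series are therefore not interchangeable with those of the single cells, although both are labelled C10.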
